A study of Mus musculus with 9 samples.

Results

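Proteasome genes were followed in 9 RNA-seq libraries of ICOS+ CD4 T cells sorted from tumours. They were taken by symbol, as every gene of the count table whose name starts with Psm, a letter from a to g and a digit, and the 4 entries marked as pseudogenes were left out. This gave 50 of 45808 genes. They encode the core, the cap, the activators and the assembly chaperones, plus Psmc3ip, a meiotic recombination factor that carries the prefix and is no subunit. Each library came from a single C57BL/6J mouse on day 12 after injection of MC38 cells, a mouse colon carcinoma line. Mice had been given anti-CTLA-4 (n = 3), anti-PD-1 (n = 3) or the control treatment (n = 3). CTLA-4 and PD-1 are inhibitory receptors of T cells, and ICOS is a costimulatory receptor of activated T cells. The control agent, antibody clones, doses and cell numbers are not analysed here.

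The proteasome is the protease that degrades ubiquitin-tagged proteins. Its barrel-shaped 20S core is built of alpha and beta subunits, and Psmb5, Psmb6 and Psmb7 carry the active sites. Interferon gamma induces Psmb8, Psmb9 and Psmb10, which replace Psmb5, Psmb6 and Psmb7 in newly built cores, called immunoproteasomes. Lymphocytes express the replacing subunits constitutively, and the peptides made feed MHC class I presentation. The 19S cap unfolds substrates with its ATPases (Psmc genes) and binds and removes ubiquitin with its other subunits (Psmd genes). The 11S activator of Psme1 and Psme2, also induced by interferon gamma, opens the core without ATP.

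The promoters of catalytic subunits and of Psme1 are shown because the results turn on these genes. Each line gives the 250 bases before the RefSeq start (GRCm38.p6), 5′ to 3′ on the strand of the gene, with motif matches in capitals.
Psmb8: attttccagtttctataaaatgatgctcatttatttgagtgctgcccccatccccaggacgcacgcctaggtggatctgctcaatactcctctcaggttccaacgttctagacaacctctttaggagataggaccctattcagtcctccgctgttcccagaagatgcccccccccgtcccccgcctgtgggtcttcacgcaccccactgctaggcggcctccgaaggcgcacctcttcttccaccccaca
Psmb9: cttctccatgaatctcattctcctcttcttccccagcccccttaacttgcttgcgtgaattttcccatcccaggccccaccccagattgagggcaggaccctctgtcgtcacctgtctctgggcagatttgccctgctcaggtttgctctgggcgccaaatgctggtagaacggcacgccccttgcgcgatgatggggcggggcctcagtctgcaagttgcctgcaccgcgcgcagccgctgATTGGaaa
Psmb10: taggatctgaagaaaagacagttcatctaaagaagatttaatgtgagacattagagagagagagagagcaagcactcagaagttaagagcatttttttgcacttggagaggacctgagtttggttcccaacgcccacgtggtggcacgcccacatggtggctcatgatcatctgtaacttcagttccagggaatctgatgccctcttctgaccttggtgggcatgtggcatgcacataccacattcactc
Psmb5: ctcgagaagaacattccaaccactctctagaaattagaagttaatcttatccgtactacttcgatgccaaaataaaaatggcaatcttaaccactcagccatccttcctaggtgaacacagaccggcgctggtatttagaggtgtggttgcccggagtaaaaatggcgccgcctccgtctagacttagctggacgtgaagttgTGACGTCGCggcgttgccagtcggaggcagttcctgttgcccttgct
Psmb6: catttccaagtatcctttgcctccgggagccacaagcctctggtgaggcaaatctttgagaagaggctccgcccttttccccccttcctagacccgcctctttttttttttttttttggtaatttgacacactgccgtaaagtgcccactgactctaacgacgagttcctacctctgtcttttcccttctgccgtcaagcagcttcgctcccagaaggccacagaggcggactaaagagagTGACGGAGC
Psme1: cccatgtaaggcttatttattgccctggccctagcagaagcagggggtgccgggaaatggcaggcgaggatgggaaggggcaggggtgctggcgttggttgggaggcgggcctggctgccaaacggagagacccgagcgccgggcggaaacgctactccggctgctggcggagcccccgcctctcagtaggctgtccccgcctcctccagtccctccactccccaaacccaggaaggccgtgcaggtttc
The windows are chr17:34197945-34198194 (plus strand) for Psmb8, chr17:34187331-34187580 (minus strand) for Psmb9, chr8:105938393-105938642 (minus strand) for Psmb10, chr14:54617996-54618245 (minus strand) for Psmb5, chr11:70525107-70525356 (plus strand) for Psmb6 and chr14:55578244-55578493 (plus strand) for Psme1. Motifs were searched on both strands. They were the interferon response element bound by IRF1 (GAAA, any 2 bases, GAAA), the antioxidant response element TGACNNNGC bound by Nfe2l1 and Nfe2l2, and CCAAT bound by NF-Y. Antioxidant response elements lay 47 to 39 bases before the start of Psmb5 and 9 to 1 bases before that of Psmb6. A CCAAT box on the opposite strand lay 8 to 4 bases before the start of Psmb9. The windows of Psmb8, Psmb10 and Psme1 held none of the 3 motifs, and no match overlapped another. By the gene spans of GENCODE M21, the windows of Psmb8, Psmb9 and Psme1 lay wholly inside the gene, downstream of its annotated start. Bases before that start were not searched for these genes, so a missing match does not cover their whole promoters. Among all 32851 promoter windows of this length, 2.98% held the interferon response element, 10.2% the antioxidant response element and 33.8% CCAAT. Among 45 windows of 42 proteasome genes, 3, 5 and 15 held these motifs in the same order. A match describes letters and says nothing of binding.

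Gene counts summed to 25530333 to 41508589 per library, and levels below are counts per 1000000 of that sum (CPM). A count of 3 corresponded to 0.0723 to 0.118 CPM, the limit below which a value cannot be told from 0, which covers counting error only. Anti-CTLA-4 replicate 2 stood apart, with 2662 genes at 5 CPM or more, against 4209 to 6309 in the other 8 libraries. Its 8 T cell markers summed to 3908 CPM, against 8535 to 11522 CPM elsewhere, and 7 of them were at 5 CPM or more. Among the 8, Cd3e (0.590 CPM), Cd4 (24.5 CPM), Icos (507 CPM), Foxp3 (898 CPM) and Ptprc (501 CPM) were the lowest of all 9 libraries. The other markers, Cd3d (696 CPM), Cd3g (649 CPM) and Trac (632 CPM), were the highest. Its 15 macrophage and monocyte markers summed to 7642 CPM, against 276 to 1162 CPM elsewhere. Of them 11 were at 5 CPM or more, against 4 to 12 elsewhere, and Cd14 was at 0. Its 7 fibroblast markers summed to 1597 CPM, against 31.4 to 378 CPM elsewhere. Of them 4 were at 5 CPM or more, against 1 to 4 elsewhere, with Dcn at 0.0281 CPM and Lum and Pdgfrb at 0. The part of such cells in the values below was not tested. In bulk samples, fewer cells of a type and less RNA per cell cannot be told apart.

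The 50 genes summed to 4269, 3836 and 3822 CPM under anti-CTLA-4, 3232, 4640.2 and 3453 CPM under anti-PD-1 and 3611, 2965 and 2864 CPM in control mice. Sums of the anti-CTLA-4 libraries were all above those of control mice, also with TMM or RLE scaling. Psmc2 and Psmd8 held 43.6% of the sum in anti-CTLA-4 replicate 2. Without these genes that library stood at 2162 CPM unscaled, below the control mice at 2614 to 3337 CPM. The sums without these genes were not read with TMM or RLE scaling. A TMM factor of 0.407 in that library would raise its sum relative to the control mice, so this order holds for unscaled CPM only. Of the 50 genes, 39 stood under 1 CPM in at least 1 library. Where the mean was 5 CPM or more, 73.8% of 42 proteasome genes and 86.0% of all 9242 genes did so. The 9 genes at 5 CPM or more in all 9 libraries were Psma2, Psma5, Psma6, Psmb1, Psmb8, Psmc2, Psme1, Psme2 and Psme4. Where the mean was 20 CPM or more, 22.5% of 40 proteasome genes and 17.98% of all 5962 genes reached 5 CPM in every library. Their median coefficient of variation over the 9 libraries was 98.2% for proteasome genes and 109% for all genes. In anti-CTLA-4 replicate 2, 16 of the 50 genes were at 5 CPM or more, against 29 to 36 in the other libraries.

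**Figure D1:**
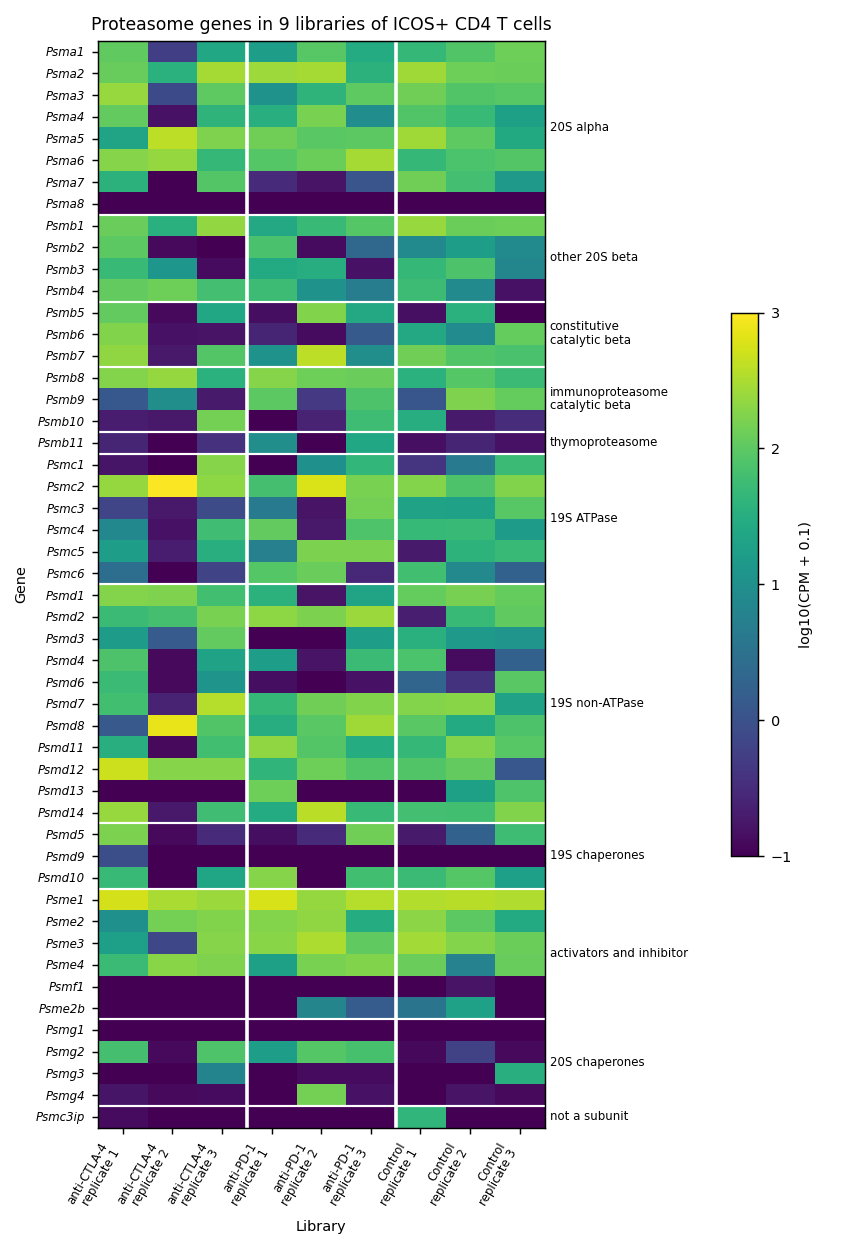
Level of each of the 50 genes (rows, grouped by role) in each library (columns), as log10(CPM + 0.1), so that 0 counts sit at -1. Psme1 is bright in all 9 libraries, most genes turn dark in some, and 33 genes are under 1 CPM in anti-CTLA-4 replicate 2.

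Of the alpha subunits, which form the outer rings of the core and its gate, Psma2, Psma5 and Psma6 were detected throughout. Psma2 stood at 118, 36.1 and 287 CPM under anti-CTLA-4, 256, 289 and 37.4 CPM under anti-PD-1 and 266, 131 and 128 CPM in control mice. Each group held a wide range, and all groups overlapped. Psma5 stood at 21.7, 399 and 168 CPM under anti-CTLA-4, 137, 93.0 and 96.5 CPM under anti-PD-1 and 270.1, 103 and 26.9 CPM in control mice, with its lowest and highest values both in anti-CTLA-4 mice. Of its 76-base stretches, 34.6% also occur in other transcripts, so its counts are uncertain. Psma6 stood at 187, 235 and 45.8 CPM under anti-CTLA-4, 89.5, 126 and 290.4 CPM under anti-PD-1 and 46.4, 73.0 and 85.9 CPM in control mice. Its anti-PD-1 libraries were all above the control ones, whereas the anti-CTLA-4 libraries lay on both sides. Psma7 stood at 37.1, 0 and 85.5 CPM under anti-CTLA-4, 0.196, 0.0604 and 1.05 CPM under anti-PD-1 and 137, 64.3 and 14.2 CPM in control mice, and here the anti-PD-1 libraries were all below the control ones. Psma1, Psma3 and Psma4 were under 1 CPM in anti-CTLA-4 replicate 2 and between 9.18 and 243 CPM in the other 8 libraries. Psma8, an alpha subunit of the testis, had 0 counts in all 9 libraries.

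Of the 4 beta subunits without an active site, Psmb1 stood at 122, 34.8 and 228 CPM under anti-CTLA-4, 25.8, 49.5 and 87.9 CPM under anti-PD-1 and 242, 129 and 129 CPM in control mice. The anti-PD-1 libraries were all below the control ones. Psmb4 stood at 111, 131 and 63.0 CPM under anti-CTLA-4, 56.1, 10.7 and 4.82 CPM under anti-PD-1 and 55.3, 7.85 and 0.0559 CPM in control mice, so that the anti-CTLA-4 libraries were above those of both other groups. Psmb2 ranged from 0 to 96.5 CPM and Psmb3 from 0.0306 to 75.5 CPM, and for both the groups overlapped.

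Psmb8 (ENSMUSG00000024338, chr17:34197721-34201454, GRCm38), the interferon-induced chymotrypsin-like subunit, was the only catalytic subunit at 5 CPM or more in all libraries. It stood at 179, 234 and 35.2 CPM under anti-CTLA-4, 184, 129 and 123 CPM under anti-PD-1 and 36.0, 86.7 and 52.6 CPM in control mice. Every anti-PD-1 library was above every control library, and anti-CTLA-4 replicate 3 was below them all. The log2 change was 2.44 (SE 1.77, edgeR adjusted p = 0.671) for anti-CTLA-4 and 1.56 (SE 1.71, edgeR adjusted p = 1.0) for anti-PD-1, each over controls. For anti-CTLA-4 it was 1.03 without anti-CTLA-4 replicate 2 and 5.24 with RLE factors. With edgeR, neither antibody's change passed after adjustment, while DESeq2 gave an adjusted p of 0.0257 for anti-CTLA-4 over controls. The edgeR test uses a spread estimated with information shared over all tested genes, not the spread of Psmb8 alone. Its exons overlap the antisense gene Gm20496 over 14.7% of their length. The deposited table's name refers to the first strand, but the counting setting itself is not stated.

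Psmb5 (ENSMUSG00000022193, chr14:54614119-54618022), which Psmb8 replaces, was high in some libraries and near 0 in others. It stood at 109, 0.0281 and 23.8 CPM under anti-CTLA-4, 0.0392, 173 and 25.6 CPM under anti-PD-1 and 0.0482, 35.6 and 0 CPM in control mice. In 4 libraries it had 2 or fewer counts, and every group held at least 1 of these. Of its 76-base stretches, 36.1% also occur in other transcripts, chiefly Gm3375, so its level is uncertain.

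Psmb9 (ENSMUSG00000096727, chr17:34181987-34187764), the interferon-induced subunit at the caspase-like site, stood at 1.18, 9.22 and 0.0918 CPM under anti-CTLA-4, 99.0, 0.363 and 75.7 CPM under anti-PD-1 and 1.08, 166 and 115 CPM in control mice. No anti-CTLA-4 library reached 10 CPM, and the other groups each held high libraries and near-absent ones. Psmb6 (ENSMUSG00000018286, chr11:70525367-70527858), which Psmb9 replaces, stood at 174, 0.0562 and 0.0612 CPM under anti-CTLA-4, 0.157, 0.0302 and 1.26 CPM under anti-PD-1 and 25.6, 8.395 and 114 CPM in control mice. Its anti-PD-1 libraries were all below the control ones, with an adjusted p of 0.93 in edgeR and 0.0317 in DESeq2.

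Psmb10 (ENSMUSG00000031897, chr8:105935735-105938444), the interferon-induced trypsin-like subunit, stood at 0.0985, 0.0843 and 147 CPM under anti-CTLA-4, 0, 0.151 and 56.6 CPM under anti-PD-1 and 30.5, 0.0965 and 0.224 CPM in control mice. Each group had 1 library with the gene and 2 libraries with 8 or fewer counts. Psmb7 (ENSMUSG00000026750, chr2:38588036-38644087), which Psmb10 replaces, stood at 216, 0.0843 and 84.6 CPM under anti-CTLA-4, 11.1, 399 and 9.53 CPM under anti-PD-1 and 134, 80.5 and 71.3 CPM in control mice. It was at 5 CPM or more in all libraries except anti-CTLA-4 replicate 2.

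**Figure D2:**
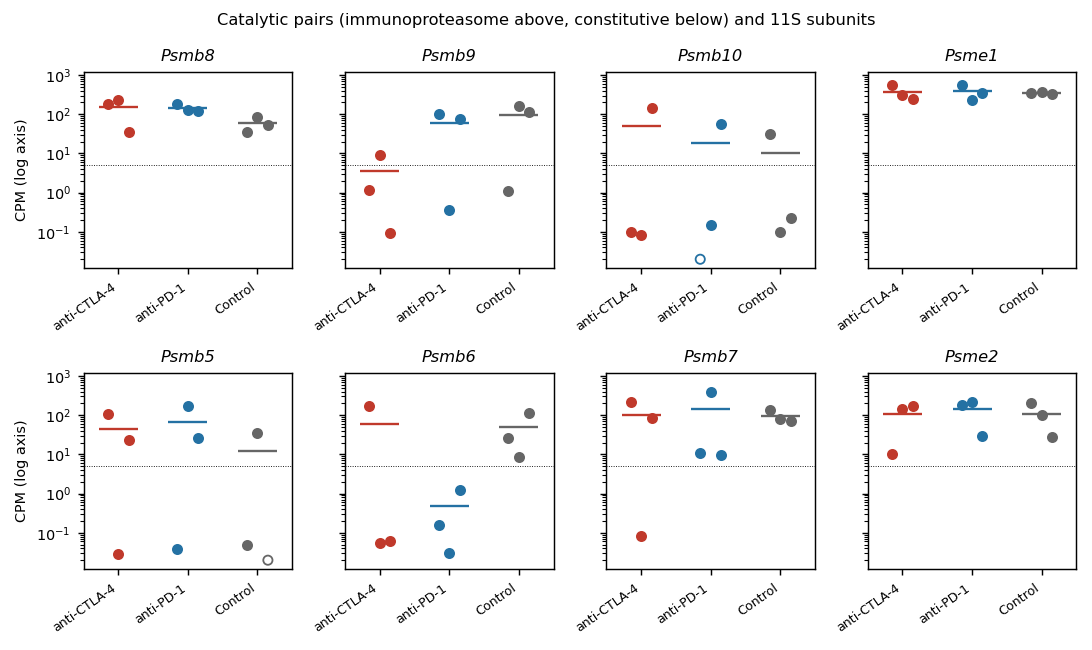
CPM on a log axis of the immunoproteasome subunits and Psme1 (upper row) and of the constitutive subunits and Psme2 (lower row), with 1 point per mouse, the group mean as a line, a dotted line at 5 CPM and open symbols for 0 counts. Psmb8 and Psme1 stay above 5 CPM in all 9 libraries, while Psmb5, Psmb6, Psmb9 and Psmb10 split into high and near-absent libraries.

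The 3 pairs were counted in each of the 9 libraries, which gave 27 cases. Both partners were at 5 CPM or more in 10, the immunoproteasome subunit alone in 7, the constitutive subunit alone in 7 and neither in 3. Per kilobase of exon, the immunoproteasome subunits held 16.1%, 99.9% and 65.4% of the summed level of the 6 subunits in anti-CTLA-4 replicates 1, 2 and 3. They held 96.0%, 11.1% and 73.9% in anti-PD-1 replicates 1, 2 and 3, and 35.3%, 51.2% and 36.6% in Control replicates 1, 2 and 3. Each treated group had values on both sides of the control mice. Without division by length the shares were 26.6%, 99.9% and 62.8% under anti-CTLA-4, 96.2%, 18.5% and 87.5% under anti-PD-1 and 29.7%, 67.0% and 47.6% in control mice. Per kilobase, group means were 60.5% ± 42.1 under anti-CTLA-4, 60.3% ± 44.1 under anti-PD-1 and 41.0% ± 8.85 in control mice (SD, n = 3 each), and the groups overlapped. In anti-CTLA-4 replicate 2 the constitutive subunits had 3 or fewer counts each, in the library with the high macrophage and fibroblast marker sums.

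**Figure D3:**
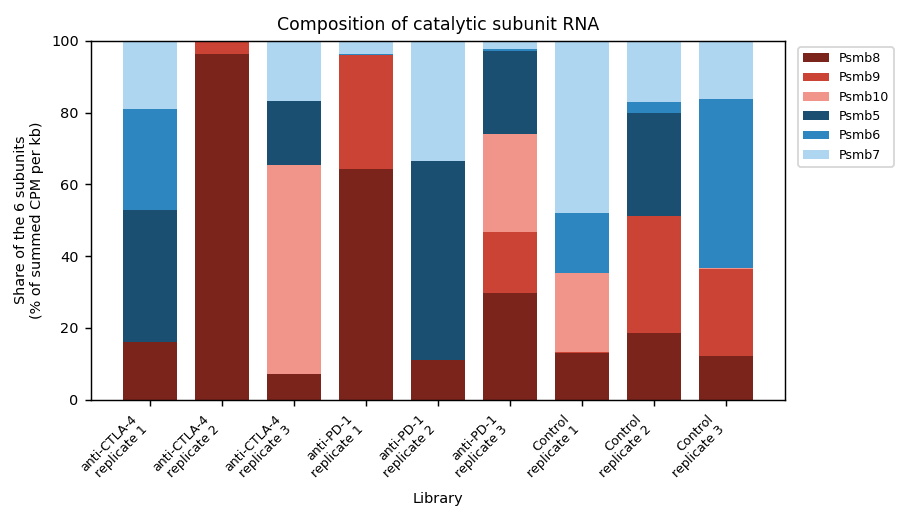
Share of each catalytic subunit in the summed CPM per kilobase of the 6 subunits (percent, vertical axis) in each library, with immunoproteasome subunits in reds and constitutive ones in blues. The red part runs from 11.1% to 99.9% in treated mice and from 35.3% to 51.2% in control mice.

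In the 19S cap, the ATPase gene Psmc2 was the only one of 17 at 5 CPM or more in all libraries. It stood at 230.1, 932 and 211 CPM under anti-CTLA-4, 65.8, 590.0 and 158 CPM under anti-PD-1 and 179, 75.5 and 175 CPM in control mice. The anti-CTLA-4 libraries were all above the control ones, and the log2 change was 2.94 (SE 1.07, edgeR adjusted p = 0.346), or 0.80 without anti-CTLA-4 replicate 2. Psmc5, next of the ATPases by mean CPM, stood at 16.7, 0.112 and 33.1 CPM under anti-CTLA-4, 5.44, 164 and 162 CPM under anti-PD-1 and 0.0964, 38.7 and 48.7 CPM in control mice, with all groups overlapping. Psmc3 stood at 0.591, 0.0843 and 0.765 CPM under anti-CTLA-4, 4.27, 0.0604 and 145 CPM under anti-PD-1 and 19.9, 19.4 and 91.6 CPM in control mice. Its anti-CTLA-4 libraries were all below the control ones (edgeR adjusted p = 0.542). Psmc6 stood at 2.72, 0 and 0.551 CPM under anti-CTLA-4, 89.1, 122 and 0.175 CPM under anti-PD-1 and 61.7, 7.62 and 1.65 CPM in control mice, and no anti-CTLA-4 library reached 5 CPM. Psmc1 ranged from 0 to 185 CPM and Psmc4 from 0.0562 to 111 CPM, with groups overlapping.

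Of the 11 other cap subunits, Psmd12, a lid subunit, stood at 494, 189 and 189 CPM under anti-CTLA-4, 40.8, 131 and 83.2 CPM under anti-PD-1 and 83.2, 109.8 and 1.12 CPM in control mice. The anti-CTLA-4 libraries were above those of both other groups, with an edgeR adjusted p of 0.516 over controls and 0.685 over anti-PD-1. Psmd8, also of the lid, stood at 1.21, 742 and 81.8 CPM under anti-CTLA-4, 30.8, 95.1 and 266 CPM under anti-PD-1 and 95.6, 27.5 and 75.6 CPM in control mice. Its log2 change of 3.55 (SE 1.39, edgeR adjusted p = 0.417) for anti-CTLA-4 over controls was -0.45 without anti-CTLA-4 replicate 2.

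Psmd1 and Psmd2, the large scaffold subunits of the cap base, lay on opposite sides of controls in anti-PD-1 mice. Psmd1 stood at 182, 166 and 62.4 CPM under anti-CTLA-4, 37.7, 0.0604 and 21.3 CPM under anti-PD-1 and 114, 153 and 115 CPM in control mice, lowest in the anti-PD-1 libraries. Psmd2 stood at 52.3, 65.0 and 159 CPM under anti-CTLA-4, 205, 161 and 252 CPM under anti-PD-1 and 0.120, 51.3 and 107 CPM in control mice, highest in them. Neither passed for anti-PD-1 over controls, with edgeR adjusted p of 1.0 for Psmd1 and 1.0 for Psmd2.

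Psmd6 and Psmd3 had the lowest mean CPM of the cap. Psmd6 stood at 53.0, 0.0281 and 11.7 CPM under anti-CTLA-4, 0.0392, 0 and 0.0584 CPM under anti-PD-1 and 1.95, 0.289 and 94.7 CPM in control mice. It had 2 or fewer counts in all anti-PD-1 libraries, below all control ones (edgeR adjusted p = 0.826). Psmd3 ranged from 0 to 108 CPM with groups overlapping. Psmd13 had 0 counts in all anti-CTLA-4 libraries, in anti-PD-1 replicates 2 and 3 and in Control replicate 1. It stood at 131 CPM in anti-PD-1 replicate 1 and at 18.4 and 77.8 CPM in Control replicates 2 and 3. Psmd4, Psmd7, Psmd11 and Psmd14, the deubiquitinase of the cap, each had libraries under 1 CPM and libraries above 70 CPM.

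The 11S activator gene Psme1 (ENSMUSG00000022216, chr14:55578123-55581529) had the lowest coefficient of variation in CPM of the set. It stood at 561, 311 and 251 CPM under anti-CTLA-4, 574, 236 and 358 CPM under anti-PD-1 and 345, 367 and 333 CPM in control mice. That coefficient was 32.4%, lower than that of all but 1.09% of the 9242 genes whose mean was 5 CPM or more. Per kilobase of exon it was also the highest of the 50 genes, with a mean level of 168 CPM per kb. The log2 change was 0.82 (SE 1.07, edgeR adjusted p = 1.0) for anti-CTLA-4 and 0.34 (SE 1.07, edgeR adjusted p = 1.0) for anti-PD-1, each over controls. For anti-CTLA-4 over controls it was 0.38 without anti-CTLA-4 replicate 2, 0.11 with library totals, 3.17 with RLE factors and 2.98 with DESeq2. The control values of 333 to 367 CPM lay inside the range of both treated groups.

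Psme2, the partner of Psme1 in the ring, stood at 10.1, 145 and 176 CPM under anti-CTLA-4, 183, 215 and 30.1 CPM under anti-PD-1 and 202, 99.6 and 27.8 CPM in control mice. Per kilobase, the level of Psme1 over that of Psme2 was 44.2 for anti-CTLA-4 replicate 1, then 9.51 for anti-PD-1 replicate 3, 9.56 for Control replicate 3 and 0.876 to 2.94 for the other 6 libraries. Of the 76-base stretches of Psme2, 22.7% also occur in other transcripts, chiefly Psme2b, so the split between these genes is uncertain. Psme2b was at 0 in all anti-CTLA-4 libraries and at most 19.2 CPM elsewhere. Psme3, which encodes the nuclear activator, stood at 17.7, 0.647 and 185 CPM under anti-CTLA-4, 197, 327 and 107 CPM under anti-PD-1 and 282, 179 and 124 CPM in control mice, and all groups overlapped. Psme4, which encodes PA200, ranged from 5.92 to 192 CPM. Psmf1, which encodes the inhibitor PI31, had 2 counts in Control replicate 2 and 0 in the other 8 libraries.

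Among the chaperones, Psmg2, which pairs with Psmg1 to assemble the alpha ring, stood at 66.9, 0.0281 and 77.9 CPM under anti-CTLA-4, 16.7, 87.0 and 68.0 CPM under anti-PD-1 and 0.0241, 0.515 and 0.0279 CPM in control mice. It was high in 5 of 6 treated mice and under 1 CPM in all 3 control mice, which both comparisons share. For anti-CTLA-4 over controls edgeR gave an adjusted p of 0.435 and DESeq2 0.000518. For anti-PD-1 over controls edgeR gave 0.823 and DESeq2 0.000207. Psmg1 itself had 0 counts in all 9 libraries. Psmg4 stood at 148 CPM in anti-PD-1 replicate 2 and at most 0.0656 CPM elsewhere, and Psmg3 reached 5 CPM in anti-CTLA-4 replicate 3 and Control replicate 3. Of the cap chaperones, Psmd10 (gankyrin) ranged from 0 to 186 CPM and Psmd5 from 0.0281 to 159.7 CPM. Psmd9 had counts in anti-CTLA-4 replicate 1 alone, at 0.820 CPM.

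Psmb11, the catalytic subunit of the thymus, stood at 0.164, 0 and 0.275 CPM under anti-CTLA-4, 9.36, 0 and 24.1 CPM under anti-PD-1 and 0.0482, 0.161 and 0.0559 CPM in control mice. It passed 5 CPM in 2 libraries, both from anti-PD-1 mice. Psmc3ip stood at 42.8 CPM in Control replicate 1 and at most 0.0328 CPM elsewhere.

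The 18 core genes, Psmb11 left out, gave 1881, 1093 and 1337 CPM under anti-CTLA-4, 1019.7, 1589 and 952 CPM under anti-PD-1 and 1559.6, 1192 and 996 CPM in control mice. These groups overlapped, although with RLE scaling the anti-CTLA-4 libraries were all above the control ones. The 17 cap genes gave 1467, 2096 and 1599 CPM under anti-CTLA-4, 1029, 1874 and 1541 CPM under anti-PD-1 and 1002, 1012 and 1157 CPM in control mice. Here the anti-CTLA-4 libraries were all above the control ones, also with TMM or RLE scaling. In anti-CTLA-4 replicate 2, Psmc2 and Psmd8 held 79.9% of the cap sum. Without these genes the unscaled cap sums were 1236, 422 and 1306 CPM under anti-CTLA-4 and 932, 1189 and 1117 CPM under anti-PD-1. In control mice they were 728, 909 and 907 CPM. In unscaled CPM the anti-CTLA-4 libraries overlapped both other groups, while the anti-PD-1 libraries were all above the control ones. These reduced sums were not read with TMM or RLE scaling. Factors of 0.407 (TMM) and 0.0622 (RLE) in anti-CTLA-4 replicate 2 would raise its sum relative to the others. The order of the groups is therefore given for unscaled CPM only. Of the 14 positions of the core, 14, 8 and 11 had either form at 5 CPM or more in anti-CTLA-4 replicates 1, 2 and 3. The numbers were 13, 11 and 10 in anti-PD-1 mice and 14, 14 and 13 in control mice. Of the 17 cap genes, 12, 5 and 14 were at 5 CPM or more under anti-CTLA-4, 13, 10 and 14 under anti-PD-1 and 12, 14 and 14 in control mice.

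**Figure D4:**
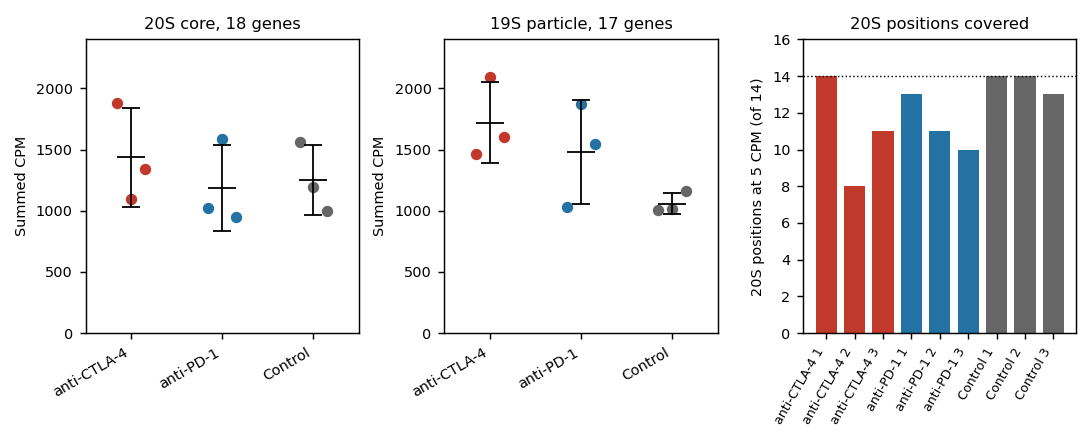
Summed CPM of the 18 core genes and of the 17 cap genes per mouse, with mean and SD, and the number of the 14 core positions with a form at 5 CPM or more per library. All 3 anti-CTLA-4 cap sums are higher than those of control mice, and filled core positions range from 8 to 14 in treated mice and from 13 to 14 in control mice.

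With edgeR, no proteasome gene passed the adjusted threshold of 0.05 in any of the 3 comparisons. Of the 50 genes, 42 had enough counts to be tested. For anti-CTLA-4 over controls 0 of 42 passed, against 0.369% of all 7858 tested genes. At an unadjusted p under 0.05 there were 5, against 11.3% of all genes, namely Psmc2, Psmd8 and Psmg2 with positive changes and Psmd13 and Psme2b with negative ones. The change was positive for 27 of 42, against 50.2% of all genes. The median log2 change was 0.34 beside 0.01 over all genes. DESeq2 gave a p for 37 of the 50 genes, among them Psmb11, which edgeR did not test. Of the genes that edgeR tested, it gave none for Psma5, Psmb2, Psmb4, Psmb10, Psmc2, Psmc3, Psmd5 or Psmd8. It called 5 of 37, against 9.94% of all genes, with Psma6, Psmb8, Psmd12 and Psmg2 higher and Psmd13 lower. CPM of the groups did not overlap for 4 of 42, against 11.9% of all genes. Psmb4, Psmc2 and Psmd12 were higher (1.57% of all genes) and Psmc3 was lower (10.4% of all genes).

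For anti-PD-1 over controls 0 of 42 passed with edgeR, against 0.0764% of all genes. At an unadjusted p under 0.05 there were 2, Psmg2 (positive) and Psmd6 (negative), against 6.01% of all genes. The change was positive for 29 of 42, against 52.4% of all genes, with a median of 0.50 beside 0.07 over all genes. DESeq2 called 5 of 37, against 9.18% of all genes, with Psmb11 and Psmg2 higher and Psma7, Psmb6 and Psmd6 lower. Groups did not overlap for 9 of 42, against 10.8% of all genes. Psma6, Psmb8, Psmd2 and Psmg2 were higher (3.45% of all genes), and Psma7, Psmb1, Psmb6, Psmd1 and Psmd6 were lower (7.33% of all genes).

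For anti-CTLA-4 over anti-PD-1 0 of 42 passed with edgeR, against 0.827% of all genes. At an unadjusted p under 0.05 there were 2, Psmd13 and Psme2b, both negative, against 14.1% of all genes. The change was positive for 24 of 42, against 49.1% of all genes, with a median of 0.33 beside -0.05 over all genes. DESeq2 called 6 of 37, against 11.9% of all genes, with Psma7, Psmb6, Psmd1 and Psmd6 higher and Psmc6 and Psmd13 lower. Within these groups, Psmd13 had counts in anti-PD-1 replicate 1 alone. Psmb6 reached 5 CPM in anti-CTLA-4 replicate 1 alone. Groups did not overlap for 4 of 42, against 9.76% of all genes. Psmb4, Psmd1 and Psmd12 were higher (2.81% of all genes) and Psmd2 was lower (6.95% of all genes), and with RLE scaling Psmd12 and Psmd2 overlapped.

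Genes that supply or use the proteasome were read beside it. Tested were 23 genes of ubiquitin supply and proteasome partners, 10 of class I antigen processing and 8 of the interferon gamma axis, and edgeR called 0 in each comparison. Changes were positive for 12, 7 and 5 of these lists with anti-CTLA-4 over controls, for 10, 7 and 5 with anti-PD-1 over controls, and for 16, 6 and 4 with anti-CTLA-4 over anti-PD-1. Ubb, a polyubiquitin gene, averaged 394 ± 94.1 CPM under anti-CTLA-4, 411 ± 42.9 CPM under anti-PD-1 and 469 ± 226 CPM in control mice (SD, n = 3 each). Uba1, the main ubiquitin-activating enzyme, stood at 648, 0.394 and 220.3 CPM under anti-CTLA-4, 431.2, 401 and 277 CPM under anti-PD-1 and 499, 263 and 659.9 CPM in control mice. Only anti-CTLA-4 replicate 2 was near 0. Vcp, the ATPase that extracts ubiquitinated proteins, stood at 309.8, 1781 and 93.2 CPM under anti-CTLA-4, 4.35, 0.544 and 189 CPM under anti-PD-1 and 349, 326 and 149.7 CPM in control mice, with an edgeR adjusted p of 0.232 for anti-CTLA-4 over anti-PD-1.

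Of the 10 class I genes, Tapbp, Erap1 and Pdia3 were under 1 CPM in anti-CTLA-4 replicate 2, and the 3 with the highest mean CPM are given here. H2-K1 stood at 7127, 2904 and 6702 CPM under anti-CTLA-4, 8480.0, 8274 and 9394 CPM under anti-PD-1 and 6417, 5560.2 and 6812 CPM in control mice. Its anti-PD-1 libraries were all above the control ones (log2 change 0.71, SE 0.32, edgeR adjusted p = 0.823). B2m averaged 1831 ± 1143 CPM under anti-CTLA-4, 1662 ± 489 CPM under anti-PD-1 and 1754 ± 198 CPM in control mice, and H2-D1 averaged 923 ± 342 CPM under anti-CTLA-4, 1224 ± 204 CPM under anti-PD-1 and 918 ± 156 CPM in control mice (SD, n = 3 each). Of the interferon gamma axis, the receptor gene Ifngr1 averaged 722 ± 242 CPM under anti-CTLA-4, 684 ± 125 CPM under anti-PD-1 and 988 ± 294 CPM in control mice. The class I transactivator gene Nlrc5 averaged 304 ± 253 CPM under anti-CTLA-4, 531 ± 353 CPM under anti-PD-1 and 418 ± 153 CPM in control mice, and the kinase gene Jak1 averaged 291 ± 216 CPM under anti-CTLA-4, 349 ± 203 CPM under anti-PD-1 and 398 ± 130.2 CPM in control mice (SD, n = 3 each). None of these passed in any comparison.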

How the data were processed

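Per the labels' protocols, RNA of T cells sorted from individual mice was amplified with a single-cell kit because yields were low, and sequenced as 76-base read pairs. Values in the deposited table are unnormalised counts by gene symbol. Per the submitters' processing notes, TopHat2, HTSeq, DESeq2 and GRCm38 were used; versions and counting settings were not stated in any label, although the deposited table's name refers to the first strand. Genes took 32.9% to 40.7% of counts, and HTSeq's summary entries were left out. Tests used edgeR 4.0.16 (R 4.3.3, quasi-likelihood, robust, TMM factors, minimum count 10) on all 9 libraries with group as the term, and Benjamini-Hochberg adjustment over 7858 genes. TMM factors were 0.407 in anti-CTLA-4 replicate 2 and 0.830 to 1.26 elsewhere, so fitted changes differ from ratios of CPM. Each SE was derived from the change and its F value. P-values set each change against the spread between libraries of a group, estimated with information shared over all tested genes. Each mouse gave 1 library, so variation between mice and from amplification cannot be told apart in that spread. Exon lengths, positions and shared stretches came from GENCODE M21, which matched 50 of 50 symbols; RefSeq promoters matched 42. A further motif that was searched is not reported here.

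The members and lists were chosen with earlier results of these data known. Named were the 6 catalytic subunits, the 2 highest and 2 lowest of each class by mean CPM, up to 3 genes per comparison and direction with the smallest p, and the 3 highest of each related list; others were named after their values were seen. Alternatives were DESeq2 1.42.0, RLE factors, library totals, no filter, 5 CPM in 3 libraries, fits of 2 groups, a replicate block and leaving out each library. Leaving out 2 libraries, rescaling CPM and sums without Psmc2 and Psmd8 were chosen after seeing the data.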

Additional observations from a re-analysis of the deposited data

How the results depend on the processing

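The coefficient of variation between libraries of a group, each from a single mouse, was 1.84 from the common dispersion. Genes at 3 or fewer counts cannot be told from 0 at this depth. The count of 0 proteasome genes called held in every edgeR alternative run, while DESeq2 called 5, 5 and 6 for anti-CTLA-4 over controls, anti-PD-1 over controls and anti-CTLA-4 over anti-PD-1. Calls over all genes, 29, 6 and 65 in that order, were 0, 0 and 0 with RLE factors, 0, 0 and 6 with library totals, 803, 742 and 959 with DESeq2, 64, 2 and 98 with no filter, 1, 0 and 31 with 2 groups only, and 1, 2 and 16 without both libraries with the fewest genes (chosen after seeing the data). With 5 CPM in 3 libraries they were 18 and 3 over controls. The replicate block gave 10, 1 and 12 calls. With this block, changes were positive for 21, 21 and 23 of 42 proteasome genes, against 39.6%, 44.0% and 45.9% of all genes. Without anti-CTLA-4 replicate 1, the change over controls for anti-CTLA-4 was positive for 21 of 44, against 41.0% of all genes. The median was then -0.37 beside -0.75 over all genes. Deviations from the group mean correlated at -0.0345 to 0.0182 between same-numbered libraries and at -0.0229 to 0.0296 between other-numbered ones. Pairing by number did not show in these values, which with 3 libraries a group cannot exclude a shared batch. Leaving out 1 library gave 0 to 79, 0 to 5 and 6 to 145. For anti-CTLA-4 over controls this was 79, 0 and 72 without anti-CTLA-4 replicates 1, 2 and 3, 52 without anti-PD-1 replicate 2, and 15 and 16 without Control replicates 2 and 3. For anti-PD-1 over controls it was 1 without anti-CTLA-4 replicate 2, 1 and 2 without anti-PD-1 replicates 1 and 3, and 1, 1 and 0 without Control replicates 1, 2 and 3. Between the antibodies it was 145, 6 and 131 without anti-CTLA-4 replicates 1, 2 and 3. The median change of all genes was 0.56, 0.26 and 0.45 with RLE factors and -0.34, -0.12 and -0.21 with library totals.

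Of 426 alternative values of 26 gene changes, 402 kept direction and side, 11 passed (all with DESeq2) and 13 turned. Without both libraries with the fewest genes, anti-CTLA-4 over anti-PD-1 turned for Psmb8 (-0.42), Psme1 (-0.0873) and Psmd8 (-1.67), anti-PD-1 over controls for Psmc2 (-0.30) and anti-CTLA-4 over controls for Psmd8 (-0.45). With library totals Psme1 turned between the antibodies (-0.052). With 1 library left out, changes between the antibodies ranged from -0.51 to 1.29 for Psmb8, -0.55 to 3.10 for Psmc2, -1.62 to 3.04 for Psmd8, -2.15 to 9.18 for Psmb6 and -13.96 to 0 for Psmd13. Psmc2 ranged from -0.28 to 1.81 for anti-PD-1 and Psmd8 from -0.45 to 3.96 for anti-CTLA-4, each over controls. The cause was not tested. The mean immunoproteasome share of each group moved by less than 1 SD in each alternative run. With SDs of 42.1 under anti-CTLA-4 and 44.1 under anti-PD-1, large shifts also pass this limit. From the median of the 3 pair ratios the means were 44.1%, 69.5% and 34.9% for anti-CTLA-4, anti-PD-1 and control mice. The main values were 60.5%, 60.3% and 41.0% in that order. The SD in control mice was 18.6 without division by length, against 8.85.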

Other observations

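A few partners of the proteasome, named after their values were seen, are given as values. Pomp, the maturation factor of new cores, stood at 69.2, 327 and 144 CPM under anti-CTLA-4, 60.2, 5.47 and 92.2 CPM under anti-PD-1 and 89.3, 7.62 and 11.8 CPM in control mice. Nfe2l1, a transcription factor of proteasome genes, stood at 45.7, 466 and 166 CPM under anti-CTLA-4, 12.5, 6.38 and 72.3 CPM under anti-PD-1 and 201, 224 and 45.4 CPM in control mice. The highest value of each was in anti-CTLA-4 replicate 2. Tap1, a subunit of the peptide transporter whose exons overlap those of Psmb9, stood at 679, 134 and 202 CPM under anti-CTLA-4, 567, 207 and 473 CPM under anti-PD-1 and 125, 196 and 245 CPM in control mice. It was above 100 CPM in all 9 libraries, 4 of which had Psmb9 under 2 CPM. Ifngr2 and Socs1 had 0 counts in all 9 libraries.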
